A study of Homo sapiens with 11 samples.

Results

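Cells of the RWPE1 line kept at 1% oxygen for 12 h were compared with RWPE1 cells that were left untreated. The comparison rests on 6 of the 11 RNA-seq libraries of the series, 3 from each condition, which were chosen by the time and replicate that their column names and labels give. RWPE1 cells are human prostate epithelial cells that were immortalized and do not form tumors. All groups were grown in serum-free keratinocyte medium with bovine pituitary extract and epidermal growth factor. The untreated group, called 0 h below, was normoxic. The medium of the hypoxic cells also held 10 mM HEPES, a pH buffer, so oxygen and buffer changed together and their parts in any difference cannot be told apart. The other libraries, 3 from 6 h and 2 from 24 h at 1% oxygen, were used to estimate the spread and to place the 12 h values in time, and one more library of 24 h was not analysed here. The labels number the replicates but do not say that they came from separate cultures, so the p-values measure the spread between these samples, which may be technical. In bulk RNA, fewer cells of a type and less RNA per cell cannot be told apart.

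Cells answer low oxygen mainly through the hypoxia-inducible factors, HIF-1 and HIF-2, whose alpha subunits are hydroxylated by oxygen-dependent prolyl hydroxylases (the EGLN enzymes) and then bound by VHL and degraded. When oxygen is scarce, the alpha subunits persist, pair with ARNT and bind DNA at short sites, the hypoxia response elements. Their best known targets take up and ferment glucose, secrete factors that act on vessels, modify collagen and limit the use of oxygen by mitochondria.

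Values below are CPM, the counts of a gene for every 1000000 counts of the scaled library size, and differences are fitted log2 fold changes of 12 h against 0 h with their standard error (SE). A gene is said to have risen or fallen where the quasi-likelihood test of edgeR, adjusted by Benjamini-Hochberg over all genes tested, gave an adjusted p under 0.05, and "edgeR adjusted p" names that value throughout. The 3 libraries of 0 h held 28362918 to 32922049 counts and those of 12 h held 32508946 to 46819348. The pair of conditions stood apart, at Euclidean distances of log2 CPM of 139 to 161 over all genes tested, against 40.3 to 47.3 among the libraries of 0 h and 49.5 to 73.6 among those of 12 h. The 12 h libraries were thus the more variable group, and replicate 1 of 12 h stood apart from the other two in several of the genes below. The 9 markers of basal epithelium summed to 12600 to 16000 CPM at 0 h and 29900 to 33900 CPM at 12 h. The keratin KRT5 alone stood at 6080 to 8460 CPM at 0 h and 13600 to 15900 CPM at 12 h. Of these 9 markers 4 rose and 3 fell, the basal regulator TP63 among those that fell. Of 10 luminal markers 7 were tested, of which 4 rose and 1 fell. Their summed level was 657 to 769 CPM at 0 h and 1290 to 1380 CPM at 12 h. The luminal genes KLK2 and KLK3, all 6 endothelial markers and 6 of 7 fibroblast markers were too low to be tested. The remaining fibroblast marker, the collagen COL1A1, fell by 0.50 on the log2 scale, a call lost without replicate 2 or 3 of either group. Of 3 immune markers tested 1 rose and 1 fell, CD14 rising from 0.506 to 0.553 CPM to 1.71 to 3.01 CPM and PTPRC (CD45) going from 2, 13 and 10 counts to 1, 0 and 1, a call lost without replicate 2 of 12 h. Of 3 neuroendocrine markers tested 2 rose and 1 fell, with log2 fold changes from -1.20 to 2.60. The enolase ENO2, which rose, is also a member of the glycolysis list below. It went from 24.3, 33.6 and 32.3 CPM to 48.1, 86.3 and 88.0 CPM.

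Of 19981 genes tested, 10236 (51.2%) differed between 12 h and 0 h, 4827 higher (24.2%) and 5409 lower (27.1%). Changes beyond 4-fold numbered 615 higher (3.08%) and 855 lower (4.28%). The 3 values of 12 h and the 3 of 0 h did not overlap in 14455 genes (72.3%). These shares are the background for each count of a gene group below. The groups and their members were chosen with earlier results of these data known. A count that departs from the background therefore describes the list and is not a test of it. The direction of moderate changes rests on how the libraries were scaled. The normalization factors were 1.29 to 1.32 at 0 h and 0.91 to 0.993 at 12 h, and with library size alone the median of all genes moved from -0.033 to -0.499 on the log2 scale and the split became 2116 higher and 8444 lower. Each group count is therefore followed by its count with library size alone. Summed levels are given on the scaled library sizes only. On that scale the sum over all genes tested was itself higher at 12 h, 1010000 to 1100000 CPM against 755000 to 777000 CPM at 0 h.

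**Figure D1:**
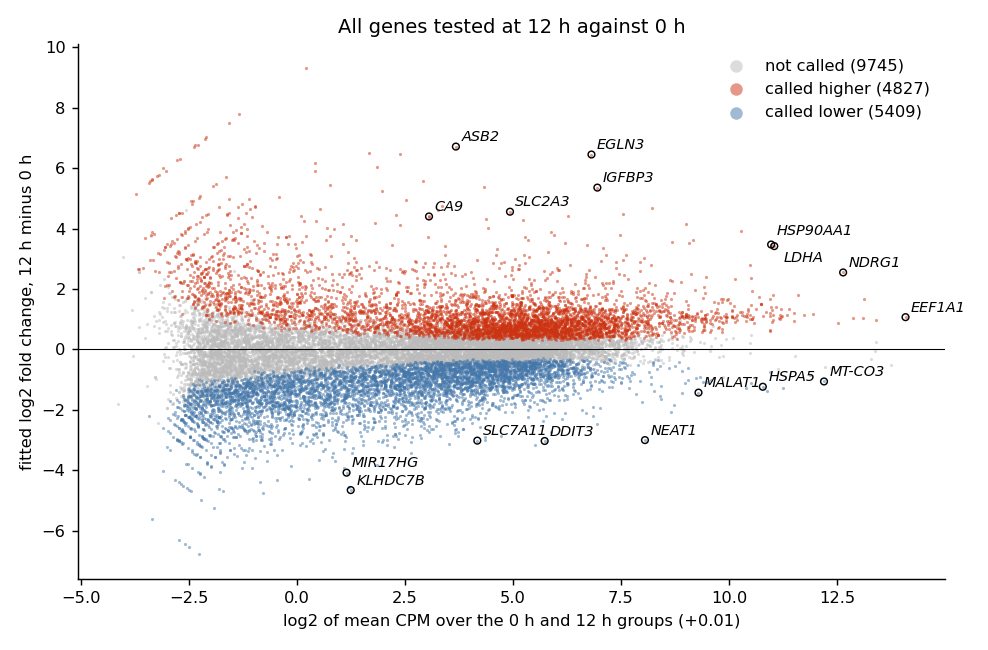
Each point is 1 of the 19981 genes tested, placed by the log2 of its mean CPM over the 0 h and 12 h groups (horizontal axis) and its fitted log2 fold change, 12 h minus 0 h (vertical axis). Red points (4827) were called higher, blue points (5409) lower and grey points (9745) not called, and circled genes are discussed in the text. The rise of EGLN3, IGFBP3 and ASB2 exceeds 5 log2 units, while EEF1A1 and MT-CO3, among the most abundant mRNAs, moved by about 1.

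Among called genes with a symbol, groups that did not overlap and a mean of at least 1 CPM, the 12 with the largest rises were KLF17, ASB2, TNFSF14, EGLN3, SUCLA2-AS1, FAM43B, HSPA7, HIF1A-AS3, HSPA6, IGFBP3, NKX1-2 and ANGPTL4. ASB2, a specificity subunit of a ubiquitin ligase, stood at 0.185, 0.32 and 0.216 CPM at 0 h and at 17.0, 30.9 and 28.2 CPM at 12 h, a log2 fold change of 6.72 ± 0.35 (SE, edgeR adjusted p = 3.7e-07). TNFSF14, a cytokine of the tumor necrosis factor family also called LIGHT, went from 0.107 to 0.12 CPM to 6.63, 11.2 and 13.4 CPM (6.47 ± 0.39, edgeR adjusted p = 6.3e-07). Both were near the limit of detection at 0 h and were detected in every library of 12 h. KLF17, a transcription factor of the Krüppel-like family at chr1:44118821-44135140, had no count in any 0 h library and 3.65, 2.79 and 0.48 CPM at 12 h, at least 31.2-fold higher when 0 h is set to 3 counts a library. NPTX1, a neuronal pentraxin, likewise had no count at 0 h and 0.575 to 0.959 CPM at 12 h, at least 10.5-fold higher. The 12 largest falls were those of KLHDC7B, MT-TA, CALML6, MIR17HG, LINC01355, VIPR1-AS1, LCN12, MT-TN, XAF1, L3MBTL2-AS1, SCARF1 and COLCA1, of which 5 are long noncoding RNAs and 2 are mitochondrial tRNAs. Of these 12 only MT-TN exceeded 10 CPM at 0 h, so the folds rest on few counts. Some moved with 1 library: HSPA6 became 4.23 and HSPA7 4.53 without replicate 1 of 12 h, while FAM43B rested on 1, 1 and 3 counts at 0 h. Among the falls, CALML6 became -5.07 and XAF1 -4.10 without replicate 1 of 12 h, and KLHDC7B -5.40 without replicate 2 of 12 h.

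Measured by the change in CPM rather than by fold, the rise was greatest for EEF1A1, KRT17, NDRG1, KRT5, the EEF1A1 pseudogenes EEF1A1P5 and EEF1A1P6, EEF2, LDHA, KRT6A and HSP90AA1, among which EEF2 (0.89 ± 0.20) lost its call with library size alone (0.42). EEF1A1P5 and EEF1A1P6 moved with EEF1A1, at 1.04 and 1.05 against 1.07 on the log2 scale, and reads of EEF1A1 may have been divided among them. NDRG1, a hypoxia-inducible gene of stress and differentiation, went from 1670, 1960 and 1950 CPM to 8360, 12100 and 12100 CPM (2.55 ± 0.23, edgeR adjusted p = 6.2e-06). The falls in CPM were greatest for MT-CO3, MT-ND2, MT-ND5, MT-ND1, HSPA5, SLC7A5, MTND2P28, PKP1, MALAT1 and MTCO3P12. Most of these are transcripts of the mitochondrial genome or nuclear copies of it, which share reads with it.

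**Figure D2:**
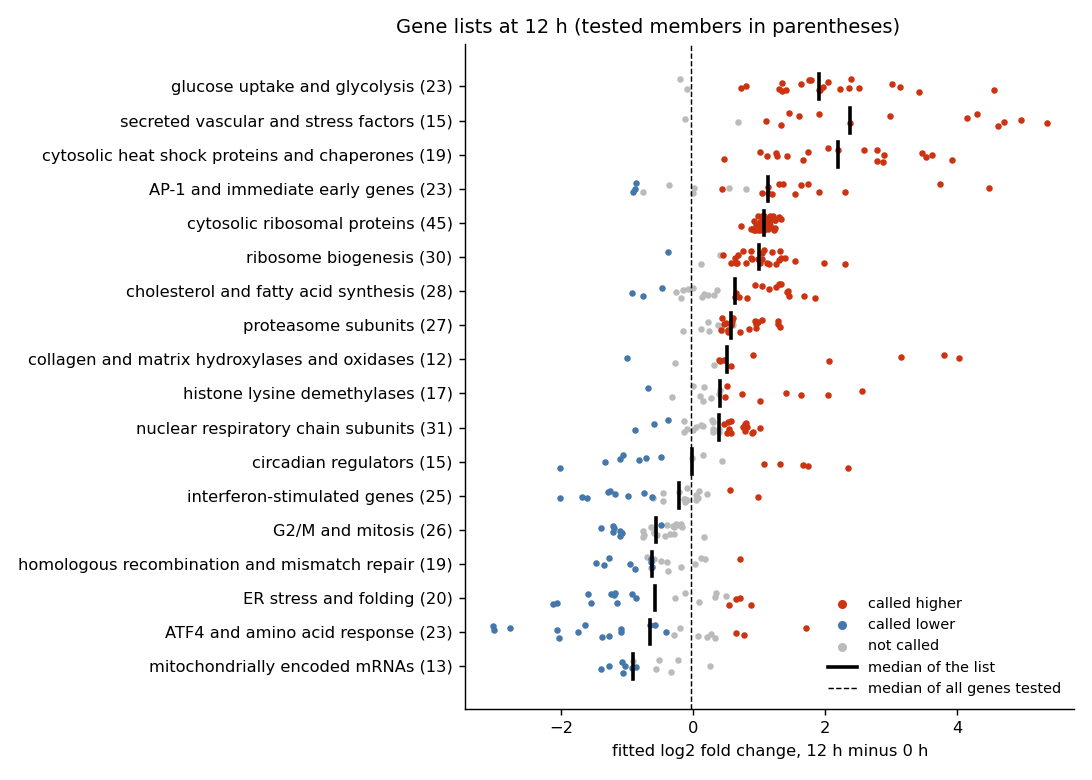
Each point is a tested member of a gene list, placed by its fitted log2 fold change, 12 h minus 0 h, and colored by its call. Black bars mark the median of each list and the dashed line the median of all genes tested (-0.033). The medians run from 2.38 for secreted factors and 2.19 for heat shock proteins and chaperones down to -0.91 for mitochondrially encoded mRNAs.

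Glucose uptake and glycolysis moved almost as a whole. Of 23 members tested, 21 rose, none fell and 2 did not pass, with a median log2 fold change of 1.90, and with library size alone 19 rose and 2 fell. In every fit that left out 1 library of 0 h or 12 h, 20 rose. Summed over the list, the level went from 4930 to 5500 CPM at 0 h to 19100 to 22000 CPM at 12 h. SLC2A3 (GLUT3, chr12:7919230-8019007), a glucose transporter of high affinity, stood at 2.43, 2.24 and 2.77 CPM at 0 h and at 60.1, 59.4 and 56.2 CPM at 12 h. No library of one group came near the other, and the log2 fold change was 4.56 ± 0.22 (SE, edgeR adjusted p = 3.7e-07). SLC2A1 (GLUT1, chr1:42925353-42958893), the transporter that most cells use for basal uptake, rose from 441, 466 and 520 CPM to 1860, 2770 and 2680 CPM (2.36 ± 0.21, edgeR adjusted p = 5.2e-06). GLUT3 thus had the larger fold and GLUT1 the larger rise in CPM. SLC2A14, the near-identical neighbor of SLC2A3 on chromosome 12, followed it at 0.373 to 0.462 CPM and 9.21 to 9.57 CPM, and reads of the pair may have been divided between them. The paper reports an RT-PCR, not quantitative, with primers that tell the pair apart. It detected SLC2A3 but no SLC2A14 transcript in RWPE1 cells, whether normoxic or after 24 h of hypoxia. A two-sided exact permutation test of the 3 libraries against 3 gave p = 0.1 for SLC2A3, SLC2A1 and CA9 alike, the smallest p that this design allows.

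Most enzymes after glucose entry rose as well. LDHA, which reduces pyruvate to lactate, went from 350, 350 and 384 CPM to 3480, 4120 and 4010 CPM (3.42 ± 0.22, edgeR adjusted p = 8.6e-07). PFKFB4 and PFKFB3, which make the activator of phosphofructokinase, rose by 3.13 ± 0.19 and 3.01 ± 0.26 on the log2 scale. HK2, the inducible hexokinase, reached 619, 1010 and 1200 CPM from 156, 165 and 177 CPM, and its 12 h values, like those of PFKFB3, were lowest in replicate 1. TPI1 and PGK1 were even across the replicates of 12 h, PGK1 going from 163 to 173 CPM to 770 to 791 CPM (2.22 ± 0.16, edgeR adjusted p = 1.5e-06). The lactate exporter SLC16A3 rose by 1.34 ± 0.26, less than SLC16A1 at 2.04 ± 0.16. The subunits PFKL and PFKM of phosphofructokinase did not pass, at -0.10 ± 0.14 and -0.20 ± 0.11, while PFKP, the platelet-type subunit, rose from 115 to 133 CPM to 333 to 336 CPM. LDHB, which favors the reverse reaction, was the weakest call of the list (0.73 ± 0.28, edgeR adjusted p = 0.0455) and lost it whichever library of 0 h or 12 h was left out, and with library size alone.

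The oxygen sensing machinery changed unevenly, with 4 of 10 tested members higher and 2 lower (3 and 4 with library size alone). EGLN3, the hypoxia-inducible prolyl hydroxylase PHD3, showed the largest rise, from 1.41, 3.52 and 2.74 CPM to 132, 289 and 249 CPM (6.45 ± 0.43, edgeR adjusted p = 1e-06). EGLN1 (PHD2) rose by 1.80 ± 0.19 and EGLN2 (PHD1) fell by 1.35 on the log2 scale, although 55.8% of the exons of EGLN1 and 30.6% of those of EGLN2 overlap another gene of the same strand. The mRNA of HIF1A itself, which is controlled mainly as a protein, was 185 to 210 CPM at 0 h and 257 to 288 CPM at 12 h. Its groups did not overlap, but the call was missed (0.44 ± 0.17, edgeR adjusted p = 0.0518). EPAS1, which encodes HIF-2 alpha, was called by a small margin (0.38 ± 0.13, edgeR adjusted p = 0.0236) and its value became -0.09 with library size alone. It kept the call in 1 of the 6 fits that left out a library of 0 h or 12 h, the one without replicate 1 of 12 h. CITED2, which competes with HIF for its coactivator, rose from 4.37 to 5.19 CPM to 13.7 to 14.1 CPM. VHL fell from 12.2 to 13.1 CPM to 7.48 to 9.01 CPM.

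**Figure D3:**
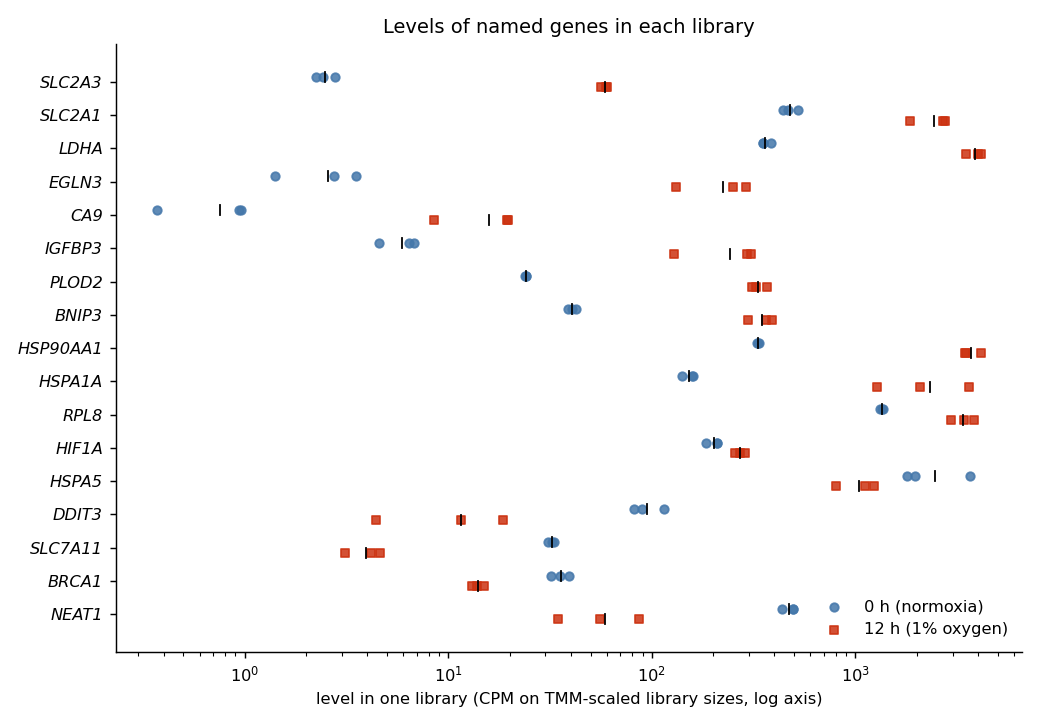
Each row is a gene and each point its CPM in 1 library on a log axis, blue circles for the 3 libraries of 0 h and red squares for the 3 of 12 h, with black bars at the group means. SLC2A3, LDHA, EGLN3, CA9, IGFBP3, PLOD2, BNIP3 and HSP90AA1 lie far to the right at 12 h, DDIT3, SLC7A11 and NEAT1 far to the left, and HIF1A shows a small shift. The lowest red square of EGLN3, CA9 and IGFBP3 and the highest of HSPA1A and RPL8 are replicate 1 of 12 h.

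Genes at the gate of the mitochondrion changed little as a group, 4 of 16 higher and 2 lower (1 and 5 with library size alone), and 2 higher without replicate 3 of 12 h. PDK1, the kinase that shuts off pyruvate dehydrogenase and a known HIF target, rose from 10.1 to 10.7 CPM to 23.0 to 27.5 CPM (1.29 ± 0.17, edgeR adjusted p = 8.7e-05). PDP1, the phosphatase that opposes it, fell from 31.3 to 39.0 CPM to 14.6 to 14.8 CPM (-1.22 ± 0.15, edgeR adjusted p = 3.9e-05). The protease LONP1 fell as well, from 121 to 124 CPM to 65.6 to 73.3 CPM. The pyruvate dehydrogenase subunit PDHA1 did not pass at -0.05 ± 0.12, nor did the hypoxic subunit NDUFA4L2 at -0.09 ± 0.27.

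Among glycogen genes 5 of 13 rose and 1 fell (3 and 2 with library size alone). PPP1R3C, which brings a phosphatase to glycogen and favors its synthesis, went from 16.4 to 19.2 CPM to 36.8, 114 and 125 CPM, the low value again in replicate 1. GBE1, the branching enzyme, rose by 1.49 ± 0.17 and PPP1R3E fell by 2.21 on the log2 scale. Of 8 genes of acid and bicarbonate handling 4 rose and none fell (2 and 2 with library size alone). CA9 (chr9:35673928-35681159), the membrane carbonic anhydrase widely used as a marker of hypoxia, stood at 0.37, 0.96 and 0.938 CPM at 0 h and at 8.52, 19.6 and 19.5 CPM at 12 h (4.4 ± 0.40, edgeR adjusted p = 6.4e-06). A gene on the other strand overlaps 35.7% of the CA9 exons, and the strand setting of the counting is not stated. CA12, a related enzyme, rose from 7.86 to 10.7 CPM to 54.3 to 76.5 CPM.

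The core of the hypoxia response element, ACGTG or GCGTG, was looked for on both strands in the 250 bases upstream of each start in the RefSeq promoter table (GRCh38.p14). These short letters are common: they occur in 54.2% of the promoters of genes tested, in 52.8% of those of genes more than 4-fold higher, in 50.1% of those more than 4-fold lower and in 53.5% of those not called. Of 46 promoters of glycolysis genes 25 held it (54.3%), as did 12 of 16 of secreted factors (75.0%). Each start was counted separately, here and in the searches below, so a gene with several starts counts more than once. The 46 promoters belong to 21 genes and the 16 to 12 genes. The table has no entry for SLC2A3, and the windows of SLC2A1 and EGLN3 hold no match, which says only that these letters are not in these windows. The stretches that follow come from 3 genes with large rises and were chosen after the matches were seen. Capitals mark the matches, read here on the strand of the gene, where CACGT and CACGC are the reverse complements of the core. In CACGTG both strands match, and that hexamer is also the E-box bound by MYC and other factors.
CA9, 100 bases up to the start, chr9:35673828-35673927, + strand: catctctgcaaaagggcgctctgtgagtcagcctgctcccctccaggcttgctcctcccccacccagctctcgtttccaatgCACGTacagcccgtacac
LDHA, 100 bases up to the start, chr11:18394463-18394562, + strand: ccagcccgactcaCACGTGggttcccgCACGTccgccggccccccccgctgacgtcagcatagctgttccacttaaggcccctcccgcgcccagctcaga
BNIP3, bases -150 to -51, chr10:131981974-131982073, - strand: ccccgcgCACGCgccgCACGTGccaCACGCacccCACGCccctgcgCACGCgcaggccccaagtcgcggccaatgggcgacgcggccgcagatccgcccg
The single match of CA9 begins at base -18, and BNIP3 has 6 matches in this stretch. A match describes the letters of the promoter and was not tested as a binding site.

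Secreted factors that act on vessels and on stressed tissue had the highest median of all lists, 2.38. Of 15 tested, 13 rose and none fell (12 and 1 with library size alone), and 13 rose in every fit without 1 library of 0 h or 12 h. IGFBP3, which binds insulin-like growth factors, went from 4.58, 6.77 and 6.4 CPM to 128, 292 and 308 CPM (5.36 ± 0.36, edgeR adjusted p = 1e-06). ANGPTL4, an inhibitor of lipoprotein lipase, rose from 0.187 to 0.529 CPM to 7.37 to 13.2 CPM. Both were lowest at 12 h in replicate 1. PGF, a placental relative of VEGF, went the other way among replicates, at 25.7, 15.1 and 14.6 CPM from 0.666 to 0.89 CPM (4.63 ± 0.33, edgeR adjusted p = 1.5e-06). ADM, the vasodilator adrenomedullin, reached 692, 974 and 1230 CPM from 47.2 to 59.8 CPM. VEGFA, the chief angiogenic factor and a classical HIF target, rose by less, from 138, 151 and 154 CPM to 387, 439 and 382 CPM (1.45 ± 0.24, edgeR adjusted p = 0.00044). VEGFC rose by 1.90 ± 0.15, and VEGFB did not pass (-0.13 ± 0.23). FLT1, a receptor of VEGFA, had 0, 2 and 1 counts at 0 h and stood at 0.622 to 0.879 CPM at 12 h.

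Enzymes that hydroxylate or cross-link collagen gave some of the most even rises, 9 of 12 higher and 1 lower (4 and 1 with library size alone). PLOD2, a lysyl hydroxylase, went from 24.1, 24.2 and 23.7 CPM to 312, 367 and 323 CPM (3.80 ± 0.19, edgeR adjusted p = 3.7e-07). P4HA1, a prolyl hydroxylase subunit, went from 23.2 to 36.4 CPM to 240 to 272 CPM (3.14 ± 0.20). The lysyl oxidases LOXL2 and LOX rose by 4.02 ± 0.41 and 2.06 ± 0.22, and LOXL1 fell by 1.00 on the log2 scale. The smaller rises of this list were fragile, and the count of 9 became 5 without replicate 3 of 0 h or without replicate 2 of 12 h. Matrix proteins and integrins were higher in 18 of 32 and lower in 3 (6 and 6 with library size alone). ITGA5, the fibronectin receptor subunit, rose from 65.0 to 72.6 CPM to 392 to 458 CPM (2.61 ± 0.26, edgeR adjusted p = 1.2e-05). PLAU, the urokinase protease, fell from 153 to 160 CPM to 32.0 to 41.7 CPM (-2.02 ± 0.15, edgeR adjusted p = 1.9e-06).

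Histone lysine demethylases use oxygen as a substrate, and 8 of 17 tested members rose while 1 fell (3 and 2 with library size alone). JMJD6 and KDM3A led the list. JMJD6, a dioxygenase related to these enzymes, rose from 16.6 to 17.8 CPM to 120, 86.5 and 97.8 CPM (2.56 ± 0.20, edgeR adjusted p = 3e-06). KDM3A was even, at 41.7 to 42.5 CPM and 172 to 178 CPM (2.04 ± 0.24). KDM6B fell from 85.4 to 90.5 CPM to 54.0 to 56.1 CPM. The 8 that rose became 5 without replicate 1 or 2 of 0 h and without replicate 2 or 3 of 12 h.

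Autophagy genes were split, 6 of 15 higher and 4 lower (2 and 7 with library size alone). BNIP3, a mitophagy receptor and HIF target, went from 38.9, 42.2 and 40.3 CPM to 296, 387 and 365 CPM (3.11 ± 0.22, edgeR adjusted p = 1.3e-06). Its relative BNIP3L rose by 1.00 ± 0.15, to 52.3 to 54.1 CPM. SQSTM1, the cargo receptor p62, fell from 368 to 405 CPM to 174 to 241 CPM, and the initiating kinase ULK1 fell by 0.93 on the log2 scale. The PINK1 kinase rose by 0.63 ± 0.16, with 39.5% of its exons overlapped by a gene on the other strand, and lost its call with library size alone (0.17). The 4 that fell became 2 without replicate 1 or 3 of 0 h or without any 1 replicate of 12 h, where SQSTM1 and ULK1 remained called.

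The mitochondrial genome took 10.2% to 10.3% of all counts at 0 h and 4.78% to 6.78% at 12 h. Of its 13 mRNAs 7 fell and none rose, with a median of -0.91 (8 fell with library size alone). MT-ND1, a subunit of complex I, went from 2760, 2710 and 2760 CPM to 1030, 945 and 1160 CPM (-1.39 ± 0.31, edgeR adjusted p = 0.00252). MT-ND5 and MT-CO3 fell by 1.28 and 1.06 on the log2 scale. MT-CO2, a subunit of complex IV, did not pass, at 9410 to 10200 CPM and 9130 to 13700 CPM. The mitochondrial tRNAs MT-TA and MT-TN fell by 4.54 and 3.44 on the log2 scale, in libraries made from RNA longer than 200 bases. Nuclear subunits of the respiratory chain differed, 15 of 31 higher and 3 lower (2 and 8 with library size alone), a count of 15 that went to 6 without replicate 2 of 0 h and to 8 without replicate 1 of 12 h. COX6B1, of complex IV, went from 66.7 to 73.8 CPM to 129 to 163 CPM (1.02 ± 0.24, edgeR adjusted p = 0.00401).

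All 19 tested members of the list of heat shock proteins and chaperones rose, with a median of 2.19 (16 with library size alone, none lower). Most are cytosolic, but the list also holds the mitochondrial chaperonins HSPD1 and HSPE1 and the transcription factor HSF1. In fits without 1 library of 0 h or 12 h, 18 or 19 rose. Chaperones hold and refold unfolded proteins, and many genes of this group are known targets of HSF1, the heat shock factor. HSPA1A, the inducible HSP70, stood at 140, 158 and 160 CPM at 0 h and at 3600, 1270 and 2080 CPM at 12 h (3.92 ± 0.38, edgeR adjusted p = 9.1e-06). HSPA1B, whose sequence is nearly the same and which may trade reads with it, followed at 549 to 1570 CPM. HSP90AA1, the inducible HSP90, went from 331, 337 and 329 CPM to 4150, 3440 and 3480 CPM (3.47 ± 0.23, edgeR adjusted p = 9.9e-07). The HSP110 gene HSPH1 rose from 80.9 to 90.6 CPM to 904 to 1260 CPM, and the HSP90 cochaperones AHSA1 and FKBP4 rose by 2.90 ± 0.15 and 2.79 ± 0.14. HSPA6 and its pseudogene HSPA7, which share reads, were among the 12 largest rises, HSPA6 at 82.7, 8.53 and 26.8 CPM from 0.531 to 1.47 CPM. HSF1 itself rose by 0.47 ± 0.14, a call lost without replicate 1 of 0 h and with library size alone (0.01), where DNAJB1 also lost its call (0.93).

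The 3 libraries of 12 h did not rise equally. The summed level of the list was 24000 CPM in replicate 1, 16300 in replicate 2 and 18700 in replicate 3, against 3960 to 4240 CPM at 0 h. DNAJB1, an HSP40, went to 420 CPM in replicate 1 and to 160 and 240 CPM in the others, from 99.6 to 105 CPM. Replicate 1 of 12 h was also the library with the lowest EGLN3, CA9 and IGFBP3, the highest ribosomal protein mRNAs and the lowest mitotic genes. The part that any of these played in another was not tested.

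**Figure D4:**
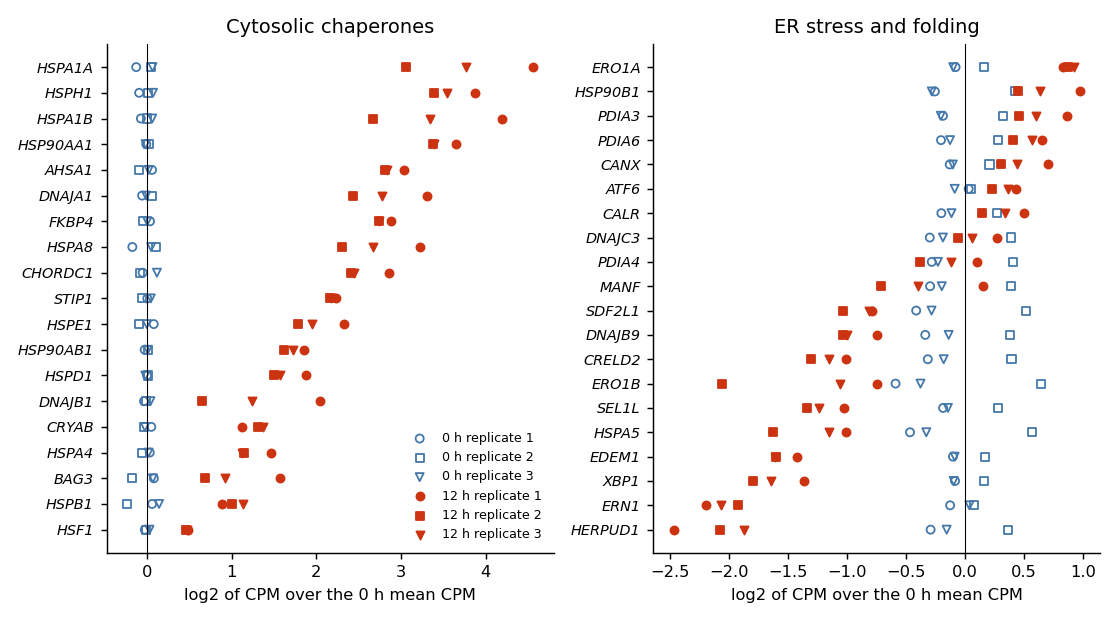
Each row is a gene and each point a library, placed by the log2 of its CPM over the mean CPM of 0 h. The left panel holds the list of heat shock proteins and chaperones, not all of them cytosolic. The right panel holds genes of endoplasmic reticulum stress and folding. Every 12 h library (filled red) lies right of every 0 h library (open blue) for the 19 genes on the left, with replicate 1 farthest right for most. On the right the 0 h libraries are themselves spread, replicate 2 being the highest for most genes, and HERPUD1, ERN1, XBP1 and EDEM1 lie left at 12 h.

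Heat shock factors bind inverted repeats of the block GAA. The pair GAANNTTC or TTCNNGAA was found upstream of 9.09% of the starts of genes tested and 13.5% of those of genes more than 4-fold higher. It was found at 2.17% of those of glycolysis genes. Of 24 starts of 16 chaperone genes, 10 held it (41.7%). Stretches of 2 chaperone promoters are shown, again chosen after the matches were seen, with capitals for the matched blocks and what joins overlapping ones.
HSPA8, 100 bases up to the start, chr11:123062137-123062236, - strand: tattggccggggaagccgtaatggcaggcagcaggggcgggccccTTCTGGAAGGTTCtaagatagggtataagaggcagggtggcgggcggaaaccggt
HSP90AA1, 100 bases up to its second start, chr14:102087045-102087144, - strand: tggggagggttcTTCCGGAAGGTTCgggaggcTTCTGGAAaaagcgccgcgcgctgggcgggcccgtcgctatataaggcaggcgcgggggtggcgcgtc
HSPA8, the constitutive HSP70, rose from 325, 393 and 379 CPM to 3420, 1810 and 2330 CPM (2.78 ± 0.24, edgeR adjusted p = 5e-06), so the gene that is usually expressed without stress moved with the inducible ones.

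Genes of endoplasmic reticulum (ER) stress and folding fell more often than they rose. Of 20 tested, 4 rose and 10 fell (0 and 11 with library size alone). The 10 that fell became 7 to 10 without 1 library of 0 h or 12 h, while the 4 that rose became 1 without replicate 1 or 3 of 0 h or without replicate 1 of 12 h, and 2 without replicate 3 of 12 h. ERN1, the sensor kinase IRE1, went from 20.8, 24.0 and 23.3 CPM to 4.94, 5.96 and 5.39 CPM (-2.06 ± 0.17, edgeR adjusted p = 3.9e-06). XBP1, whose mRNA IRE1 splices, fell from 61.5 to 73.7 CPM to 18.9 to 25.5 CPM (-1.59 ± 0.21). HERPUD1 and EDEM1, which act in the degradation of misfolded proteins, fell by 2.12 and 1.54 on the log2 scale. ERO1A, the hypoxia-inducible oxidase of the ER, was the member with the largest rise (0.87 ± 0.13, edgeR adjusted p = 0.000165), and lost its call with library size alone (0.40). HSPA5, the ER chaperone BiP, was 1790, 3660 and 1970 CPM at 0 h and 1230, 801 and 1110 CPM at 12 h (-1.24 ± 0.37, edgeR adjusted p = 0.0138). Its call was lost without replicate 2 of 0 h (-0.85) and without replicate 2 of 12 h (-1.11). The high 0 h value was that of replicate 2, which was also the highest 0 h library for most genes of this list. On the scaled library sizes the summed level of the list overlapped between the groups, 5510 to 8840 CPM against 5610 to 7530 CPM. The overlap does not hold with library size alone, where 12 h levels stand lower relative to 0 h.

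The ER stress response element, 2 blocks that read CCAAT and CCACG a fixed distance apart, was found upstream of 17 starts of genes tested (0.098%) and of 9 of 25 starts of genes in this list (36%). The hypoxia core was found at 22 of these 25 starts (88.0%), which belong to 19 genes. That was the highest share of the lists examined, and its bearing on the levels of these genes was not tested. The block CCACG followed by C or T itself contains a core match, so these searches are not independent. The promoter of HSPA5 is shown because its level is among the largest falls in CPM, with capitals for the 2 blocks.
HSPA5, 100 bases up to the start, chr9:125241344-125241443, - strand: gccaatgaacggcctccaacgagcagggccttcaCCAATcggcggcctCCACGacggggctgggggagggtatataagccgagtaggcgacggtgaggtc

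Targets of ATF4, the factor of amino acid shortage and of the integrated stress response, were mostly lower. Of 23 tested, 3 rose and 14 fell (1 and 15 with library size alone), with a median of -0.65. DDIT3 (CHOP), a factor that promotes death under stress, went from 81.4, 115 and 89.1 CPM to 4.43, 11.6 and 18.5 CPM (-3.04 ± 0.37, edgeR adjusted p = 4.8e-05), with 31.6% of its exons overlapped by a gene on the other strand. SLC7A11, the cystine transporter, fell from 31.0 to 33.1 CPM to 3.11 to 4.6 CPM (-3.02 ± 0.26, edgeR adjusted p = 5.1e-06). SESN2, TRIB3 and ATF3 fell by 2.06, 1.74 and 2.03 on the log2 scale, and the alanyl-tRNA synthetase AARS1 by 1.64. The mRNA of ATF4 itself did not pass (0.08 ± 0.14). DDIT4 (REDD1), an inhibitor of mTOR that HIF also induces, was, with ATF5 and VLDLR, 1 of the 3 members that rose, from 265 to 353 CPM to 773 to 1270 CPM. The call of VLDLR (0.77 ± 0.27) was lost without replicate 1 or 2 of 0 h or replicate 2 or 3 of 12 h, and those of VLDLR and ATF5 with library size alone. SLC7A5, the large neutral amino acid transporter, fell from 2000, 1710 and 2010 CPM to 580, 845 and 942 CPM, and SLC38A2, a glutamine transporter, rose from 573 to 622 CPM to 1350 to 1900 CPM.

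All 45 mRNAs in the list of cytosolic ribosomal proteins rose, within a narrow range of 0.72 to 1.33 and with a median of 1.07 (36 with library size alone, none lower). RPL8 went from 1320, 1350 and 1370 CPM to 3810, 2940 and 3430 CPM (1.33 ± 0.33, edgeR adjusted p = 0.00467), and RPL7A rose by 1.22 ± 0.22. The 12 h values were highest in replicate 1, where the list summed to 95800 CPM against 70300 and 78500 CPM in the others and 37300 to 39100 CPM at 0 h. Without replicate 1 of 12 h, 34 of the 45 were called. Ribosome biogenesis factors rose in 27 of 30 and fell in 1 (14 and 1 with library size alone). That 1, UBTF, was not called without replicate 1 or 3 of 0 h or of 12 h. NOP16 rose from 14.5 to 16 CPM to 71.5 to 78.3 CPM (2.30 ± 0.16, edgeR adjusted p = 1.3e-06), and NCL, the nucleolar protein nucleolin, from 416 to 456 CPM to 1260 to 1290 CPM. Of 20 translation factors 11 rose and 2 fell (5 and 2 with library size alone, 1 lower without replicate 2 of 0 h or replicate 3 of 12 h). EEF1A1, which brings tRNA to the ribosome, had the largest rise in CPM of any gene, from 10800, 11500 and 11400 CPM to 28100, 19000 and 23500 CPM, although its call was lost without replicate 1 of 0 h (1.03, edgeR adjusted p = 0.0527). EEF2K, the kinase that restrains elongation, fell from 78.8 to 85.3 CPM to 24.6 to 47.5 CPM.

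Cell cycle genes did not move as a unit. Of 29 genes of the G1/S transition and DNA replication 8 rose and 9 fell (1 and 14 with library size alone). The cyclin CCND1 rose from 61.0 to 68.4 CPM to 132 to 177 CPM, while the replication factors CDC45 and RFC4 fell by 1.23 and 1.07 on the log2 scale. The 8 rises became 2 without replicate 2 of 0 h, 4 without replicate 2 of 12 h and 5 without replicate 3 of 12 h, and the 9 falls became 4 without replicate 1 or 3 of 0 h or without replicate 1 of 12 h. Of 26 mitotic genes none rose and 8 fell (18 with library size alone), while 3 fell without replicate 1 of either group and 4 without replicate 2 or 3 of 0 h or replicate 3 of 12 h. CENPE, a kinetochore motor, went from 29.6, 22.8 and 23.7 CPM to 8.73, 9.96 and 10.1 CPM (-1.40 ± 0.32, edgeR adjusted p = 0.00294), and cyclin CCNB2 fell by 1.11 on the log2 scale. The proliferation marker MKI67 did not pass, at 239, 146 and 206 CPM and 92.7, 232 and 193 CPM, replicate 1 being the low library of 12 h.

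Genes of homologous recombination and mismatch repair were lower in 8 of 19 and higher in 1 (15 and 0 with library size alone). BRCA1 went from 39.3, 32.1 and 35.4 CPM to 13, 13.8 and 15 CPM (-1.35 ± 0.28, edgeR adjusted p = 0.00168). RAD52 fell from 10.7 to 11 CPM to 3.21 to 4.39 CPM and FANCD2 from 11.1 to 13.9 CPM to 3.55 to 6.14 CPM. The mismatch repair gene PMS2 fell by 0.96 on the log2 scale, and MSH6, of the same pathway, rose by 0.71 ± 0.20, a call lost with library size alone (0.24).

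Among cyclin-dependent kinase inhibitors and p53 targets 2 of 23 rose and 9 fell (0 and 18 with library size alone), and the 2 rises became 0 without replicate 1 or 3 of 0 h or replicate 2 or 3 of 12 h and 1 without the remaining replicates. TP53INP1 and GDF15 fell by 2.44 and 2.38 on the log2 scale, GDF15 going from 80.2 to 96.5 CPM to 14 to 19.1 CPM. BBC3 (PUMA), an activator of apoptosis, fell from 21.2 to 23.1 CPM to 7.2 to 7.58 CPM. CDKN1A, the inhibitor p21, did not pass (-0.35 ± 0.26). In the BCL2 family 6 of 15 rose and 4 fell (4 and 8 with library size alone), the survival gene BCL2L1 rising from 61.8 to 68.1 CPM to 187 to 195 CPM. Replication-dependent histones, whose mRNAs mostly lack poly(A) tails, rose in 7 of 15 and fell in none (6 and 1 with library size alone), with 1 lower without replicate 3 of 12 h. Their summed level was 90.3 to 108 CPM at 0 h and 144, 211 and 224 CPM at 12 h.

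Immediate early genes rose in 14 of 23 and fell in 3 (8 and 4 with library size alone). DUSP1, a phosphatase that switches off MAP kinases, went from 15.9, 15.2 and 16.7 CPM to 355, 343 and 377 CPM (4.49 ± 0.25, edgeR adjusted p = 5.1e-07). FOSL1 and JUN, parts of the AP-1 factor, rose by 3.74 ± 0.32 and 1.54 ± 0.19. Another AP-1 gene, JUNB, fell from 108 to 127 CPM to 56.8 to 71.2 CPM, and FOS did not pass (0.80 ± 0.42). In the epidermal growth factor receptor family 5 of 14 rose and 6 fell (3 and 6 with library size alone). The ligand NRG1 rose from 1.78 to 1.89 CPM to 18.4 to 21.3 CPM (3.44 ± 0.28, edgeR adjusted p = 3e-06), whereas its receptors ERBB3 and ERBB2 fell by 0.90 and 0.89 on the log2 scale. EGFR did not pass (-0.05 ± 0.19).

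Clock genes divided into those that rose (5 of 15) and those that fell (7), and the counts were 5 and 7 with library size alone. BHLHE40, a repressor of the clock and a HIF target, went from 61.6 to 70.7 CPM to 263, 340 and 405 CPM (2.34 ± 0.23, edgeR adjusted p = 9.2e-06). BMAL1 and PER1 rose by 1.67 ± 0.25 and 1.32 ± 0.18. PER3 fell from 77.3 to 77.9 CPM to 17.3 to 22.2 CPM (-2.01 ± 0.17, edgeR adjusted p = 4.7e-06), and the nuclear receptor NR1D2 fell by 1.34 on the log2 scale. In the MYC and MAX network 7 of 15 rose and 4 fell (4 and 5 with library size alone). MYC went from 101, 83.7 and 99.8 CPM to 273, 191 and 240 CPM (1.31 ± 0.22, edgeR adjusted p = 0.000445). Its antagonist MXI1, a HIF target, rose by 1.66 ± 0.18, and MXD3 fell by 1.95 on the log2 scale.

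Of 24 genes of Notch and TGF-beta signalling 9 rose and 5 fell (5 and 9 with library size alone), and 5 rose without replicate 2 or 3 of either group. TGFB1 rose from 28.1 to 31.3 CPM to 76.9 to 91.8 CPM, and NOTCH3 fell from 469 to 545 CPM to 166 to 178 CPM (-1.55 ± 0.17, edgeR adjusted p = 1.9e-05). Of 23 genes of adhesion and the epithelial state 10 rose and 5 fell (3 and 6 with library size alone), and 6 rose without replicate 1 or 2 of 0 h. SNAI2, a repressor of epithelial genes, rose by 1.90 ± 0.18, and ESRP1, an epithelial splicing factor, fell by 0.89 on the log2 scale, while E-cadherin (CDH1) did not pass (0.15 ± 0.15). Of the 9 basal markers 4 rose and 3 fell (4 and 4 with library size alone). KRT17 went from 3940, 4160 and 4690 CPM to 14900, 11800 and 13700 CPM (1.66 ± 0.31, edgeR adjusted p = 0.000834), and TP63, the basal master regulator, fell from 218 to 259 CPM to 105 to 143 CPM. Of 7 luminal markers tested 4 rose and 1 fell (3 and 1 with library size alone), KRT18 rising from 93.9 to 108 CPM to 361 to 440 CPM and ACP3, prostatic acid phosphatase, falling by 1.25 on the log2 scale. Keratinocyte differentiation markers rose in 4 of 12 and fell in 1 (0 and 3 with library size alone). The small proline-rich protein SPRR1B, of the cornified envelope, rose by 1.10 ± 0.22, the keratins KRT4 and KRT13 by 0.95 ± 0.19 and 0.88 ± 0.17 and SPRR1A by 0.94 ± 0.28, a call lost without replicate 2 of 0 h or replicate 1 of 12 h, none of which kept its call with library size alone. Involucrin (IVL) fell from 19.5 to 24.9 CPM to 6.43 to 9.84 CPM.

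Cholesterol and fatty acid synthesis, which needs oxygen at several steps, was higher in 15 of 28 and lower in 3 (10 and 7 with library size alone). DHCR7, of the last step to cholesterol, rose from 59.8 to 68.2 CPM to 201 to 242 CPM (1.84 ± 0.16, edgeR adjusted p = 5.8e-06), and the oxygenase SQLE rose by 1.46 ± 0.17. The regulators SREBF1 and SREBF2 fell by 0.93 and 0.48 on the log2 scale. Of 24 genes of lipid storage and oxidation 5 rose and 7 fell (4 and 12 with library size alone). HILPDA, a lipid droplet protein and HIF target, rose from 4.02 to 4.21 CPM to 18.3, 34.6 and 42.9 CPM, and PLIN4, another droplet protein, fell from 7.73 to 8.73 CPM to 0.891 to 1.48 CPM.

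Of 21 NRF2 antioxidant genes 11 rose and 2 fell (7 and 3 with library size alone), among them PRDX1 at 1.81 ± 0.14 and TXNRD1 at 1.30 ± 0.13. Metallothionein and zinc genes rose in 7 of 13 and fell in 2 (4 and 2 with library size alone), MT2A going from 289 to 313 CPM to 990 to 1170 CPM. Iron genes were balanced at 4 of 13 higher and 4 lower (1 and 6 with library size alone), with the ferritin chain FTL higher by 1.00 ± 0.25 and the importer SLC11A2 lower, from 34.1 to 40.2 CPM to 18.2 to 21.6 CPM. Without replicate 3 of 0 h 2 iron genes rose, and without replicate 3 of 12 h 2 fell. Interferon-stimulated genes were lower in 9 of 25 and higher in 2 (15 and 1 with library size alone). STAT2 and IRF9, of the interferon-activated transcription factor, fell by 1.68 and 2.02 on the log2 scale. Of 19 cytokine genes tested 7 rose and 5 fell (4 and 7 with library size alone), NFKBIA, the inhibitor of NF-kappaB, going from 41.8 to 47.9 CPM to 365, 311 and 197 CPM and the epithelial cytokine TSLP falling by 1.86. The 5 falls became 3 without replicate 1 or 2 of 0 h or replicate 3 of 12 h. The smaller counts on the minor side were fragile too: 1 NRF2 gene fell without any single replicate of either group other than replicate 2 of 12 h, and 1 interferon-stimulated gene rose whichever library of 0 h or 12 h was left out. Amino acid transporters were even, 6 of 18 higher and 6 lower (3 and 8 with library size alone). Splicing factors rose in 14 of 26 and fell in 3 (4 and 4 with library size alone), SRSF3 by 1.33 ± 0.20, while the cold-inducible RNA-binding protein CIRBP fell from 132 to 133 CPM to 42.0 to 57.2 CPM. Proteasome subunits rose in 20 of 27 and fell in none (8 and 1 with library size alone), PSMD1 rising by 1.32 ± 0.16.

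Long noncoding RNAs were mostly lower where they were called. Of 2631 tested, 274 rose and 1244 fell, with a median log2 fold change of -0.87 (155 and 1617 with library size alone, median -1.33). On the scaled library sizes their summed level was 14000 to 14300 CPM at 0 h and 13900 to 21800 CPM at 12 h, ranges that overlap. As a share of all counts, long noncoding RNAs, tested or not, took 1.88% to 1.9% at 0 h. At 12 h they took 1.28%, 2.18% and 1.59% in replicates 1, 2 and 3. Of 13789 protein-coding genes 3674 rose and 3602 fell, with a median of 0.01 (1508 and 5944 with library size alone, median -0.46). Among the named ones 6 of 21 rose and 6 fell (4 and 10 with library size alone). NEAT1, the scaffold of paraspeckles, went from 496, 491 and 434 CPM to 34.5, 55.9 and 86.2 CPM (-3.00 ± 0.29, edgeR adjusted p = 9.7e-06). NORAD fell from 639 to 684 CPM to 139 to 208 CPM. MALAT1 fell from 872 to 941 CPM to 330 to 356 CPM, and 83.7% of its exons are overlapped by a gene on the other strand. MIR17HG, the host transcript of the miR-17-92 cluster, went from 3.58 to 4.9 CPM to 0.228 to 0.267 CPM. DANCR rose from 10.7 to 11.2 CPM to 30.5 to 34.1 CPM, and HIF1A-AS3, which lies antisense to HIF1A, from 0.0231 to 0.107 CPM to 2.95 to 3.7 CPM.

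Set against 6 h instead of 0 h, 12 h differed in 989 of the genes tested (4.95%), 376 higher and 613 lower. That count depended on single libraries, going to 61 without replicate 3 of 12 h. It was 3621 without replicate 1 of 24 h and 3649 without replicate 2 of 24 h. The 24 h libraries, which enter the shared estimate of the spread, differed from each other. Their normalization factors were 0.851 and 0.539, and the mitochondrial genome took 1.74% and 0.369% of their counts. The part of that difference in these counts was not tested. ASB2, EDN2 and BHLHE40 were called higher than 0 h and higher than 6 h. ASB2 stood at 10.9 to 12.1 CPM at 6 h, 17.0 to 30.9 CPM at 12 h and 44 and 77.6 CPM at 24 h, so it rose from 6 h to 12 h (1.12 on the log2 scale) with every library above those of 6 h. EDN2, the vasoconstrictor endothelin 2, went from 12.2 to 26.0 CPM at 6 h to 31.2, 90.5 and 91.6 CPM at 12 h and 111 and 446 CPM at 24 h. BHLHE40 was at 114 to 191 CPM at 6 h, below every library of 12 h.

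Other genes turned between 6 h and 12 h. KCNQ5, a potassium channel, was at 5.41 to 6.71 CPM at 0 h, 1.91 to 2.66 CPM at 6 h, 14 to 19.6 CPM at 12 h and 7.57 and 10.7 CPM at 24 h. All 3 of its 12 h libraries were above those of every other time. TXNIP, an inhibitor of glucose uptake and of thioredoxin, was at 30.2 to 56.9 CPM at 6 h, and its 12 h values of 4.64 to 6.22 CPM overlapped those of 0 h, so that a comparison with 0 h alone shows nothing of it. DDIT3 was lowest at 6 h, at 1.38 to 1.82 CPM, and was higher at 12 h by 2.82 on the log2 scale while still far below 0 h. The apoptosis gene BMF showed the same order, with 20.1 to 21.9 CPM at 0 h, 1.33 to 1.63 CPM at 6 h and 4.43, 8.83 and 12.9 CPM at 12 h. MIR17HG was at 1.95 to 6.25 CPM at 6 h, which overlapped 0 h, and at 0.228 to 0.267 CPM at 12 h. EGFR, which did not differ from 0 h by the test, was at 221 to 273 CPM at 6 h and 424 to 521 CPM at 12 h. Of the genes with at most 3 counts in every library of 6 h, DPP6, a membrane protein that regulates potassium channels, had 0, 1 and 3 counts at 6 h and 18, 31 and 50 at 12 h.

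**Figure D5:**
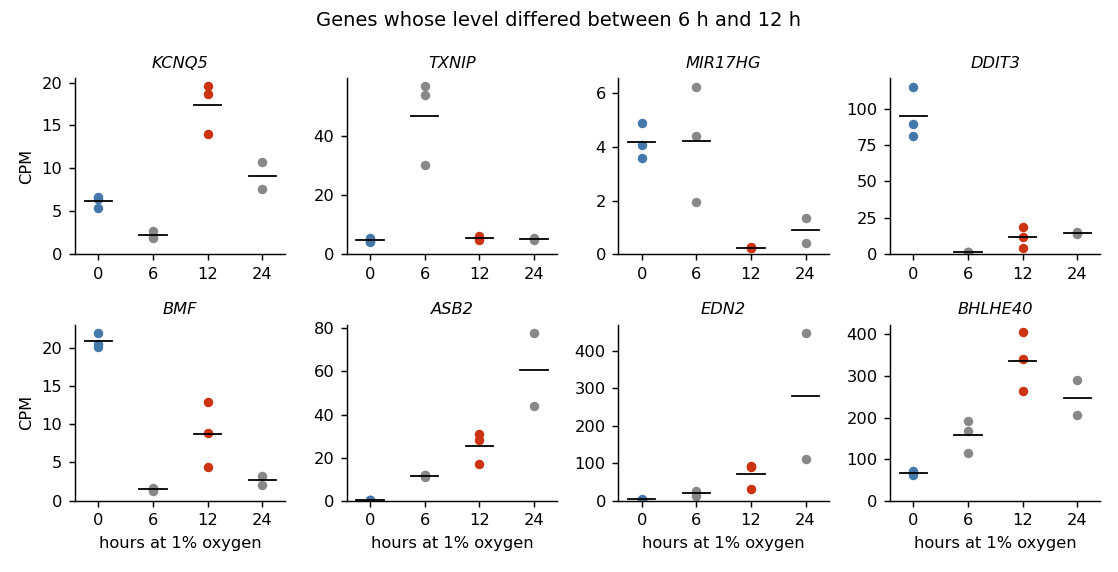
CPM on a linear axis from 0 for 8 genes in every library against hours at 1% oxygen (0, 6, 12 and 24), 1 panel a gene, with a point for each library and a black bar at each group mean. Blue is 0 h, red 12 h and grey the other times. ASB2, EDN2 and BHLHE40 are higher at each time up to 12 h, TXNIP peaks at 6 h, KCNQ5, DDIT3 and BMF dip at 6 h, and MIR17HG is low at 12 h.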

How the data were processed

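RNA from 4 groups of RWPE1 libraries was sequenced single-end from stranded libraries of RNA longer than 200 bases. From the reads the authors made a deposited table of raw counts per Ensembl gene, with Trimmomatic, STAR and featureCounts on hg38, and all 11 of its sample columns were matched to labels. Here the counts were filtered with filterByExpr, scaled by TMM and fitted with edgeR 4.0.16 (R 4.3.3) over all 11 libraries with time as the single factor, tested by quasi-likelihood and adjusted by Benjamini-Hochberg. Gene names and overlaps came from GENCODE release 44, and 4 list symbols were unmatched. The rule for named genes covered members of 41 gene lists and 7 marker lists, the 12 highest and 12 lowest fold changes, the 10 largest rises and falls in CPM and the 5 most extreme on each side against 6 h. The members and lists were chosen with earlier results of these data known. In data simulated for 12 h against 0 h over the 19335 genes that passed the filter there, edgeR called 48 of 50 genes at a true log2 fold change of -2, 29 of 50 at -1, 38 of 50 at 1 and 50 of 50 at 2. The other 19135 genes were left unchanged, and the changed ones had a 0 h mean over 1 CPM. Rises and falls were equal in number and far fewer than those called in the real data. The simulation therefore does not address the scaling of the real libraries. Alternatives were limma-voom, DESeq2 1.42.0, other scalings and filters, a replicate block and fits without 1 library.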

Additional observations from a re-analysis of the deposited data

Results flagged for a closer look

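The change from 0 h was flagged where it differed between the exposures of 6 h and 12 h, by the contrast of 12 h with 6 h in the same edgeR fit (quasi-likelihood test, Benjamini-Hochberg adjusted over all genes tested). These genes are those named above that passed that contrast, whose count over all genes rested on single libraries. Groups of 3 were too small to be checked for a sample far from the others.

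Higher at 12 h than at 6 h on the log2 scale were KCNQ5 by 2.99, DDIT3 by 2.82, BMF by 2.54, EDN2 by 1.87, TNFSF14 by 1.71, RAD52 by 1.16, ASB2 by 1.12, BHLHE40 by 1.09, EGFR by 1.00, PLAU by 0.77, TP63 by 0.77, SNAI2 by 0.68 and PFKP by 0.49. DPP6, with at most 3 counts in each library of 6 h, was at least 10.4-fold higher at 12 h. Of these, DDIT3, BMF, RAD52, PLAU and TP63 were below 0 h at both times, and the difference from 6 h lay toward the level of 0 h.

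Lower at 12 h than at 6 h were MIR17HG with a log2 difference of -4.08, TXNIP with -3.12, LINC01355 with -2.03, NR1D2 with -0.97, PDP1 with -0.68, VHL with -0.65 and TXNRD1 with -0.64. TXNIP and EGFR were called against 6 h and not against 0 h. EGFR stood at 482 to 515 CPM at 0 h, 221 to 273 CPM at 6 h and 424 to 521 CPM at 12 h.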

How the results depend on the processing

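The count of 10236 genes that differed between 12 h and 0 h was 8249 to 14908 under the other settings and 8176 to 12655 in fits without 1 library. With library size alone 2116 were higher and 8444 lower, and changes beyond 4-fold were 405 higher and 1759 lower. With at least 10 counts required in each of the 6 libraries, which leaves 16100 genes, 535 changed more than 4-fold, 224 higher and 311 lower. Without 1 library, 3803 to 6062 genes were higher, 4362 to 6782 lower and 1371 to 1651 changed more than 4-fold, 556 to 690 higher and 780 to 991 lower. The 989 genes that differed between 12 h and 6 h became 4489 with sample quality weights, 1921 with DESeq2, 1674 with no filter on low counts and 510 with a replicate block, and ran from 61 to 3649 without 1 library; these causes were not tested.

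Same-numbered libraries of 0 h and 12 h did not deviate together (correlations of -0.0549, -0.0875 and 0.014), so the numbers were not taken to pair samples. With a replicate block 9805 genes differed between 12 h and 0 h. Among the named genes that were called, EPAS1 changed sign, to -0.086 with library size alone. Changes of sign in named genes that were not called were not counted. The medians of 16 gene or marker lists also changed sign with library size alone.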
